A study of Sus scrofa with 16 samples.

Results

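The comparison set filamentous pig conceptuses, over 100 mm long, against small spherical conceptuses of 1 to 5 mm, the longest and the smallest of the 4 stages in the series. Members were the 8 arrays whose titles name these stages, 4 filamentous and 4 small spherical, of 16 arrays in all. Every probe that varied was compared, which was 1014 of 1015, and 637 genes could be named through probes that the annotation gives to 1 gene symbol.

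Each array was a membrane of spotted pig cDNAs chosen for expression in embryos. Total RNA of each conceptus sample was amplified, labelled with phosphorus-32 and hybridised to 1 membrane. The stages between were large spherical conceptuses of 6 to 11 mm and tubular conceptuses of 13 to 45 mm, with 4 arrays each, and their arrays entered the estimate of the spread. The labels give no day of gestation, breed, litter or treatment for any stage, and the stages are named by size and shape; whether anything else differs between them is not known here. Whether the 4 samples of a stage came from separate litters is not said in the labels, and the spread behind the p-values is that of these samples, which may be technical.

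The early pig conceptus is a fluid-filled vesicle with an outer trophectoderm, an inner layer of extra-embryonic endoderm and a small embryonic disc. It grows as a sphere, then lengthens within a short time into a tubule and a thin filament that lies along the uterine lining. During this change the trophectoderm makes estrogens from cholesterol, and the estrogens signal pregnancy to the mother. Steroid synthesis starts when STAR moves cholesterol into the mitochondrion, where CYP11A1 cuts its side chain. CYP17A1 then makes androgens and CYP19A1, the aromatase, turns them into estrogens.

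The values are deposited intensities on a linear scale, and differences are given as log2 of filamentous minus small spherical with the standard error (SE) of the fit. A probe passed where its p from limma, adjusted by the Benjamini-Hochberg method over all 1014 probes, was below 0.05. "Rose" and "fell" are used of such probes alone, and levels are not compared between genes because signal depends on the spotted cDNA. Array medians of the 8 arrays lay between 62.8 and 69.4, and the number of arrays limits the precision. Whole conceptuses were measured, so fewer cells of a type and less RNA per cell cannot be told apart.

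Several arrays stood apart from their stage. Small spherical replicate 3 had a mean Spearman correlation of 0.914 with the other small spherical arrays, below its 0.931 with large spherical, 0.930 with tubular and 0.919 with filamentous arrays. Small spherical replicate 1 had the lowest value within its stage, 0.873. Filamentous replicate 1 had the lowest within the filamentous arrays, 0.900. Filamentous replicates 2 and 3 correlated more with tubular arrays, at 0.933 and 0.938, than with the other filamentous arrays, at 0.911 and 0.921.

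Intensities came in steps, with 159 to 255 distinct values among the 1015 probes of an array. The lowest steps were shared by many probes: IL2, IL4, IL10 and KLKB1 had the same 4 small spherical values, 1.79, 3.20, 1.91 and 2.18. Values of that size therefore have no order among themselves. At the other end, 7 probes of filamentous replicate 1 shared that array's highest value.

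The steroid gene STAR, the growth factor TGFB3, the placental gene PLAC1 and the membrane-binding annexin ANXA2 rose from the small spherical to the filamentous stage. They were the only named genes to pass, 4 of 637 (0.628%), and no named gene fell. At an unadjusted p below 0.05, 62 named genes were higher (9.73%) and 32 lower (5.02%), and the groups did not overlap for 27 higher (4.24%) and 17 lower (2.67%). Over all probes, 9 of 1014 passed (0.888%), of which 8 were higher (0.789%) and 1 was lower (0.0986%) in filamentous conceptuses. By the unadjusted p, 97 probes were higher (9.57%) and 51 lower (5.03%). The 4 filamentous values all lay above the 4 small spherical values for 46 probes (4.54%) and all below for 27 (2.66%). The median difference over all probes was -0.03, and 45.6% of probes had a positive difference.

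**Figure D1:**
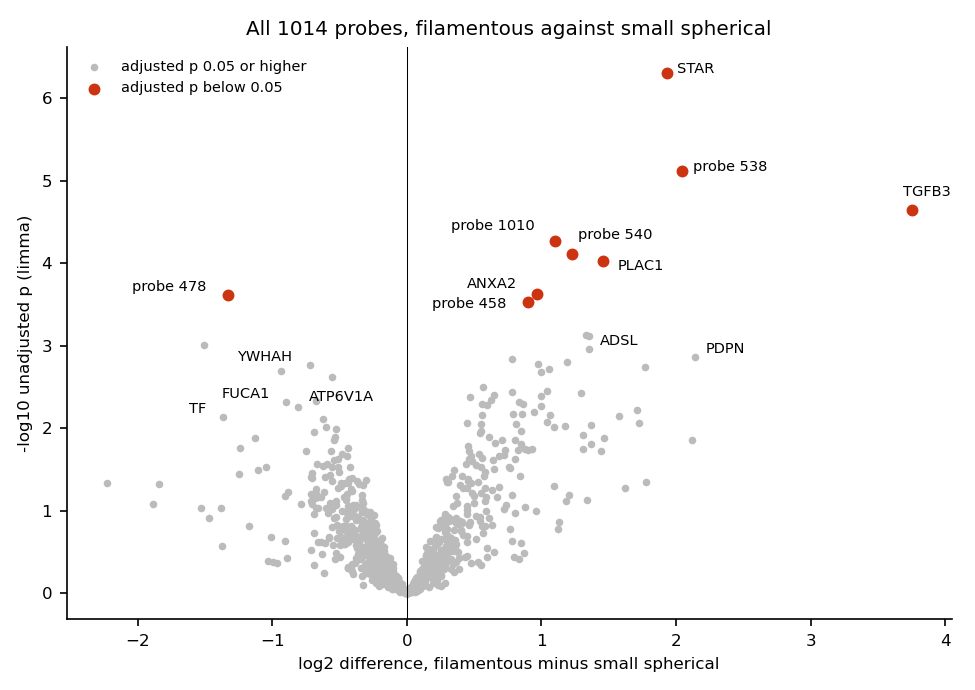
Log2 difference of filamentous minus small spherical conceptuses (x axis) against −log10 of the unadjusted p from limma (y axis), 1 point for each of 1014 probes. The 9 red points passed at an adjusted p below 0.05, 8 of them to the right of 0 and 1, probe 478, to the left; TGFB3 has the greatest difference, 3.75, and STAR the smallest p.

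These counts moved with the arrays in the fit. With small spherical replicate 3 left out, 28 probes passed, 26 higher and 2 lower, with all 9 reported probes among them. Without that array and filamentous replicate 1, 31 passed, of which 6 were among the 9. With the 8 arrays of these stages alone, which leaves fewer arrays to estimate the spread, STAR and probe 538 passed.

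STAR showed the clearest difference of all probes. In order of replicate 1 to 4, which holds for every series of 4 values here, STAR read 38.7, 31.8, 50.8 and 38.8 on small spherical arrays. The filamentous arrays read 113, 168, 193 and 140. The groups did not overlap: the lowest filamentous value was above the highest small spherical one. The difference was 1.93 with an SE of 0.23 and a 95% interval from 1.44 to 2.42, or 3.81-fold (limma, adjusted p = 0.000499, n = 4 a group). It passed under all 29 alternatives tried.

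The other steroid genes measured had positive differences, and none of them passed. CYP11A1, the side-chain cleavage enzyme, read 44.1, 41.4, 54.6 and 23.5 in small spherical and 60.4, 104, 110 and 93.2 in filamentous conceptuses. All 4 filamentous values were higher, and the difference was 1.19 with an SE of 0.31 (limma, adjusted p = 0.097, n = 4 a group). With the pair of small spherical replicate 3 and filamentous replicate 1 omitted it was 1.54, with an adjusted p of 0.0207 in limma. These were the highest small spherical and the lowest filamentous reading, so omitting them widens the difference by construction.

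CYP17A1, the enzyme of androgen synthesis, was dim. Its small spherical values were 6.60, 3.00, 5.01 and 2.18 and its filamentous values 5.65, 17.5, 36.5 and 21.3, so that 3 of 4 filamentous arrays lay above every small spherical array. On small spherical replicates 2 and 3 the reading was the commonest low value of the array, which 25 and 21 probes shared. The difference of 2.12 had an SE of 0.76 and did not pass (limma, adjusted p = 0.197, n = 4 a group).

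CYP19A1, the aromatase, was bright at both ends, at 177, 192, 181 and 142 in small spherical and 167, 249, 210 and 233 in filamentous conceptuses. These groups overlapped. The difference was 0.30 with an interval from -0.09 to 0.70, which leaves out a rise of the size fitted for STAR (limma, adjusted p = 0.498, n = 4 a group).

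The electron carriers of the cytochrome b5 family were the other steroid genes with a low p. CYB5A, which assists CYP17A1, read 132, 86.1, 79.4 and 75.9 against 131, 117, 135 and 155. Its difference of 0.56 did not pass (SE 0.18; limma, adjusted p = 0.155, n = 4 a group). Only small spherical replicate 1 was as high as the filamentous arrays. Without it the difference was 0.73 with an adjusted p of 0.0426 in limma, but leaving out the highest small spherical array raises the difference by construction. CYB5B, the form of the mitochondrial outer membrane, averaged 159 ± 91.1 (SD, n = 4) and 339.8 ± 127 (SD, n = 4), a difference of 1.17. The hydroxysteroid dehydrogenases HSD17B4 and HSD17B12 had differences of 0.55 and 0.22. In all, 8 of 8 steroid genes had a positive difference, against 45.1% of all named genes, and 1 passed (0.628% over all named genes). The list was written with earlier results of these data known, so these shares are a description and no separate support. At an unadjusted p below 0.05, 5 were higher (9.73% over all named genes) and none lower, and 2 had all filamentous values above (4.24% over all named genes). Their median was 0.87, against -0.03 over all probes.

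**Figure D2:**
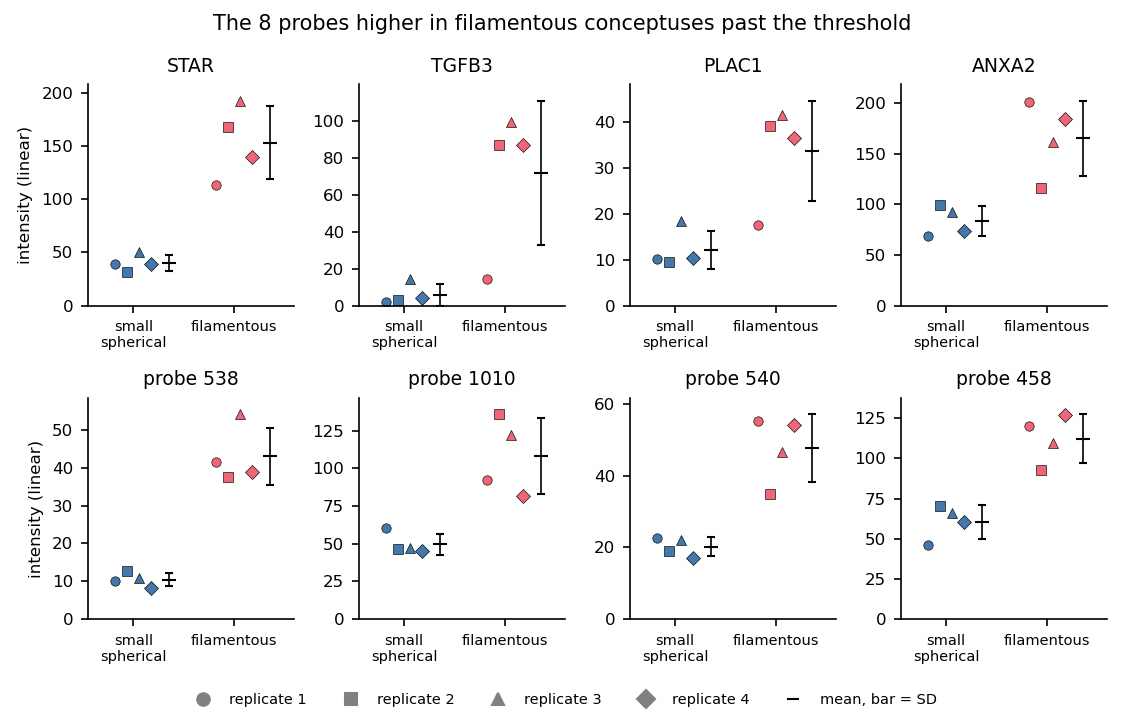
Intensity on a linear scale (y axis) of the 8 probes that passed with a higher level in filamentous conceptuses, on the 4 small spherical (blue) and 4 filamentous arrays (red), with 1 symbol for each replicate number and the mean with its SD in black. STAR separates fully, from 31.8 to 50.8 against 113 to 193, while filamentous replicate 1 of TGFB3, at 14.2, lies at the level of small spherical replicate 3; SD bars that reach below 0 end at the axis.

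TGFB3 had the greatest difference of any probe. It is 1 of 3 transforming growth factor beta ligands, which act through paired receptors and SMAD proteins. Small spherical arrays read 1.79, 3.20, 14.5 and 3.91, and filamentous arrays 14.2, 86.8, 99.5 and 86.9. Replicates 2, 3 and 4 of the filamentous stage were far above all others, but filamentous replicate 1 was slightly below small spherical replicate 3. The difference was 3.75 with an SE of 0.62 and a 95% interval from 2.43 to 5.08 (limma, adjusted p = 0.00765, n = 4 a group). The first small spherical readings sat on shared low steps, with 16 and 14 probes at exactly the values of replicates 1 and 2. With an offset of 8 added before log2 the difference was 2.38. Leaving out filamentous replicate 1 gave 4.42, leaving out the third small spherical array gave 4.34, and leaving out the pair gave 5.01, so the fitted 13.5-fold is not a firm size. TGFB3 passed under 28 of 29 alternatives and was lost with the 8 arrays alone (adjusted p = 0.143 in limma).

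The other ligands did not pass, and whether they differ from TGFB3 was not tested. TGFB1 read 44.1, 22.2, 41.2 and 27.9 in small spherical and 67.2, 52.1, 41.5 and 64.2 in filamentous conceptuses, with 3 of 4 filamentous values above all others. Its difference was 0.76 (SE 0.32; limma, adjusted p = 0.274, n = 4 a group). TGFB2 averaged 97.8 ± 18.5 and 78.2 ± 18.3 (SD, n = 4 each), a difference of -0.34, and BMP4, a related ligand, had a difference of -0.07. SMAD4, the mediator shared by both branches, averaged 94.2 ± 5.47 and 121 ± 16.4 (SD, n = 4 each), a difference of 0.35.

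Among other growth factor genes, the receptor KDR, which binds vascular endothelial growth factor, read 13.7, 19.0, 27.9 and 12.6 against 21.0, 29.0, 39.0 and 23.8. Its difference was 0.66 (SE 0.24; limma, adjusted p = 0.215, n = 4 a group), and small spherical replicate 3 was again the highest of its group. The ligand VEGFA had a difference of 0.02, at 60.6 ± 11.6 and 62.1 ± 13.9 (SD, n = 4 each). IGF2, a fetal growth factor, was near the bottom of the scale at 5.96 ± 3.43 and 2.44 ± 1.38 (SD, n = 4 each). Of the 10 genes of this list 5 differences were positive and 5 negative, 1 passed (0.628% over all named genes) and the median was -0.01. By the unadjusted p 4 were higher and none lower, against 9.73% and 5.02% over all named genes.

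PLAC1, a gene whose expression is largely limited to the placenta, read 10.2, 9.39, 18.4 and 10.4 in small spherical conceptuses. The filamentous values were 17.6, 39.1, 41.5 and 36.4. As for TGFB3, small spherical replicate 3 was high and filamentous replicate 1 low, and those readings overlapped. The difference was 1.46 with an SE of 0.28, or 2.75-fold (limma, adjusted p = 0.0159, n = 4 a group). PLAC1 passed in 22 of 28 alternatives. It was lost with the 8 arrays alone (adjusted p = 0.152 in limma) and when any one of 5 arrays was left out (small spherical replicates 1 and 4, filamentous replicates 2, 3 and 4), where the adjusted p from limma lay between 0.0512 and 0.0745.

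PDPN, podoplanin, a mucin-like membrane glycoprotein, showed how far 1 array can weigh. It read 54.8, 22.2, 163 and 12.6 in small spherical and 115, 185, 225 and 198 in filamentous conceptuses. Small spherical replicate 3 was above filamentous replicate 1, while the other small spherical arrays were below every filamentous array. The difference was 2.14 with an SE of 0.55 (limma, adjusted p = 0.097, n = 4 a group). Without those 2 arrays it was 3.02, with an adjusted p of 0.000778 in limma. They were the highest small spherical and the lowest filamentous reading. Leaving them out widens the difference by construction, so this value is no support for it.

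The remaining trophoblast genes differed little beyond their spread. SFN, a 14-3-3 protein of epithelia, averaged 96.5 ± 40.2 and 139 ± 51.4 (SD, n = 4 each). PAG6, a pregnancy-associated glycoprotein, averaged 74.2 ± 9.37 and 66.5 ± 2.25 (SD, n = 4 each), a difference of -0.15. GCM1, a transcription factor of the trophoblast, was at 2.70 ± 1.03 and 5.48 ± 8.92 (SD, n = 4 each), where the mean and the fitted difference of -0.96 have opposite signs. Of these 6 genes 4 were positive and 1 passed (45.1% and 0.628% over all named genes), with a median of 0.35.

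The keratins used as trophectoderm markers gave signal at both stages, which alone does not identify the cell layer. KRT18, an intermediate filament protein of simple epithelia, read 257, 288, 312 and 220 in small spherical and 238, 312, 198 and 253 in filamentous conceptuses. The groups overlapped almost fully, with a difference of -0.11 and an interval from -0.49 to 0.27. KRT19 had a difference of 0.55 (SE 0.23; limma, adjusted p = 0.274, n = 4 a group) and KRT8 one of 0.28. The adhesion genes CDH1 and CTNNB1 had differences of -0.09 and -0.45. Over the 7 keratin and junction genes none passed and the median was -0.09. At an unadjusted p below 0.05, 1 was higher and 1 lower, against 9.73% and 5.02% over all named genes.

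ANXA2, which binds membrane phospholipids in the presence of calcium and links them to actin, rose 1.96-fold. Its small spherical values were 69.1, 98.9, 92.7 and 73.7 and its filamentous values 201, 116, 161 and 184, without overlap. The difference was 0.97 with an SE of 0.20 and a 95% interval from 0.54 to 1.40 (limma, adjusted p = 0.0309, n = 4 a group). This call was less firm than that of STAR: it held in 18 of 29 alternatives, over which the adjusted p ran from 0.0116 to 0.16, and it was lost without any one of small spherical replicates 1 and 4 and filamentous replicates 1, 3 and 4.

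The related annexins had positive differences too. ANXA1 read 19.1, 31.8, 20.3 and 32.3 against 91.2, 40.6, 39.0 and 49.0, and ANXA5 read 103, 118, 118 and 84.6 against 148, 124, 142 and 160. In both, all 4 filamentous arrays were above all 4 small spherical arrays. The differences were 1.04 for ANXA1 and 0.45 for ANXA5, with adjusted p-values of 0.14 and 0.169 in limma (n = 4 a group). ANXA4 had a difference of 0.56, and the calcium sensor CALM2 one of 0.30. S100A1, a small calcium-binding protein, was the exception at -0.58, with wide spread at 81.9 ± 43.6 and 54.4 ± 22.6 (SD, n = 4 each). In this list of 6 genes, 1 passed and 4 had all filamentous values above (0.628% and 4.24% over all named genes), with a median of 0.50.

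Of the actin genes, those with the lowest p were small proteins that bind actin. TMSB10, a thymosin that holds actin monomers, read 82.5, 70.1, 77.5 and 46.4 in small spherical and 112, 124, 125 and 105 in filamentous conceptuses. TAGLN2, a transgelin, read 19.1, 47.8, 45.1 and 44.3 against 61.2, 69.4, 71.7 and 89.4. Neither overlapped, with differences of 0.78 (SE 0.20) and 0.98 (SE 0.26), and neither passed (both at an adjusted p of 0.097 in limma, n = 4 a group). With a term for the arrays numbered 1, both passed, at adjusted p-values of 0.0459 for TMSB10 and 0.00863 for TAGLN2 in limma. TMSB10 passed in 3 and TAGLN2 in 2 of 29 alternatives, with adjusted p-values in limma of up to 0.239 and 0.291. Neither passed with arrays 2 to 4 alone. Leaving out small spherical replicate 1, where TAGLN2 read 19.1, lowered its difference to 0.66. Actin itself, as ACTG1, had a difference of -0.03 at 196 ± 15.2 and 196 ± 46.4 (SD, n = 4 each). The 11 actin genes had a median of -0.03, with 5 positive (45.1% over all named genes) and none passed.

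Further genes among the 15 with the smallest p and a positive difference belonged to other functions, and none passed. ADSL, an enzyme of purine synthesis, read 116, 150.1, 291 and 95.5 against 394, 285, 606 and 304. Filamentous replicates 1 and 3 were at the highest value of their arrays, so these readings may be lower limits. The difference was 1.35 (SE 0.34; limma, adjusted p = 0.0847, n = 4 a group). ATIC, another enzyme of purine synthesis, had the opposite sign: it read 60.2, 41.4, 39.3 and 60.6 against 46.7, 31.9, 31.4 and 18.8, a difference of -0.69 (SE 0.24; limma, adjusted p = 0.185, n = 4 a group).

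GABARAPL2, a member of the ATG8 family that sits on autophagosome membranes, read 58.4, 47.8, 41.2 and 22.4 in small spherical and 79.2, 83.9, 76.8 and 94.4 in filamentous conceptuses. No value overlapped, and the difference was 1.06 (SE 0.28; limma, adjusted p = 0.097, n = 4 a group). DLD, a subunit of the pyruvate dehydrogenase complex, read 47.7, 51.0, 39.3 and 47.5 against 93.7, 69.4, 81.8 and 74.2. It too had no overlap, at a difference of 0.78 (SE 0.23; limma, adjusted p = 0.14, n = 4 a group). The filamentous values of these genes were close to each other, with SDs of 7.81 for GABARAPL2 and 10.6 for DLD.

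TM4SF1, a membrane protein with 4 spans, read 20.9, 20.6, 27.9 and 19.2 against 27.9, 34.8, 31.4 and 36.4, a difference of 0.57 (adjusted p = 0.135 in limma, n = 4 a group). CITED1, a transcriptional co-regulator, read 4.82, 15.8, 18.4 and 14.8 against 15.9, 29.0, 31.4 and 51.5, a difference of 1.29. CCNI, cyclin I, read 26.2, 28.6, 27.9 and 43.2 against 51.0, 46.3, 39.0 and 59.1, a difference of 0.65. In each of these genes 1 array kept the groups from separating. The adjusted p was 0.14 for CITED1 and for CCNI in limma.

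Several of the higher genes shared an order among the small spherical arrays, with replicate 3 the highest and replicate 4 the lowest. This order was found in 84 of 1014 probes (8.28%). Among the 97 higher probes at an unadjusted p below 0.05 it was found in 29 (29.9%), and among the 51 lower ones in 1 (1.96%). The named genes with it among the leading 15 were ADSL, PDPN, CYP11A1 and TM4SF1. In a stretch chosen after values were seen, the probes numbered 640 to 730, it was found in 20 of 91 (22%), ADSL among them. Its part in the differences was not tested.

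The unnamed probes that passed are given by number. Probe 538 read 10.2, 12.6, 10.7 and 8.27 in small spherical and 41.6, 37.7, 54.1 and 38.9 in filamentous conceptuses. It did not overlap and rose 4.13-fold with a difference of 2.05 (SE 0.31; limma, adjusted p = 0.00384, n = 4 a group). It passed in all 28 alternatives that could be run for it. Its 8.27 on small spherical replicate 4 was the commonest low value of that array, which 11 probes shared. Probe 540 rose by 1.22 (adjusted p = 0.0156), probe 1010 by 1.10 (adjusted p = 0.0135) and probe 458 by 0.90 (adjusted p = 0.0332, all limma, n = 4 a group), each without overlap. The call held for probe 540 in 24 of 28, for probe 1010 in 26 of 29 and for probe 458 in 15 of 29 alternatives.

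Probe 478 was the only one that fell. It read 173, 70.1, 121 and 82.4 in small spherical and 43.3, 43.4, 51.6 and 31.4 in filamentous conceptuses, without overlap. The difference was -1.33 with an SE of 0.28, so that the small spherical level was 2.51-fold the filamentous one (limma, adjusted p = 0.0309, n = 4 a group). The call held in 18 of 29 alternatives. It was lost when any one of 6 arrays was left out (small spherical replicate 1, tubular replicate 3 and each filamentous array), at adjusted p-values from limma of 0.0511 to 0.11, and in 5 other settings, at 0.0517 to 0.152. Probes 238 and 234, also unnamed, did not pass, with differences of -1.51 and -0.93 and adjusted p-values of 0.0827 and 0.097 in limma (n = 4 a group). Probe 696, which the annotation gives to several genes, lay higher by 1.33 and was not among those that passed (limma, adjusted p = 0.0702, n = 4 a group).

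The named genes with a lower level in filamentous conceptuses did not pass, and the values below are a description. YWHAH, the eta form of the 14-3-3 adaptor proteins, read 187, 123, 139 and 147 in small spherical and 80.1, 89.7, 104 and 84.3 in filamentous conceptuses. The groups did not overlap, with a difference of -0.72 (SE 0.19; limma, adjusted p = 0.097, n = 4 a group). The other 14-3-3 genes measured did not share this: YWHAQ had a difference of 0.22 with all 4 filamentous arrays above, SFN one of 0.51 and YWHAB one of -0.33.

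**Figure D3:**
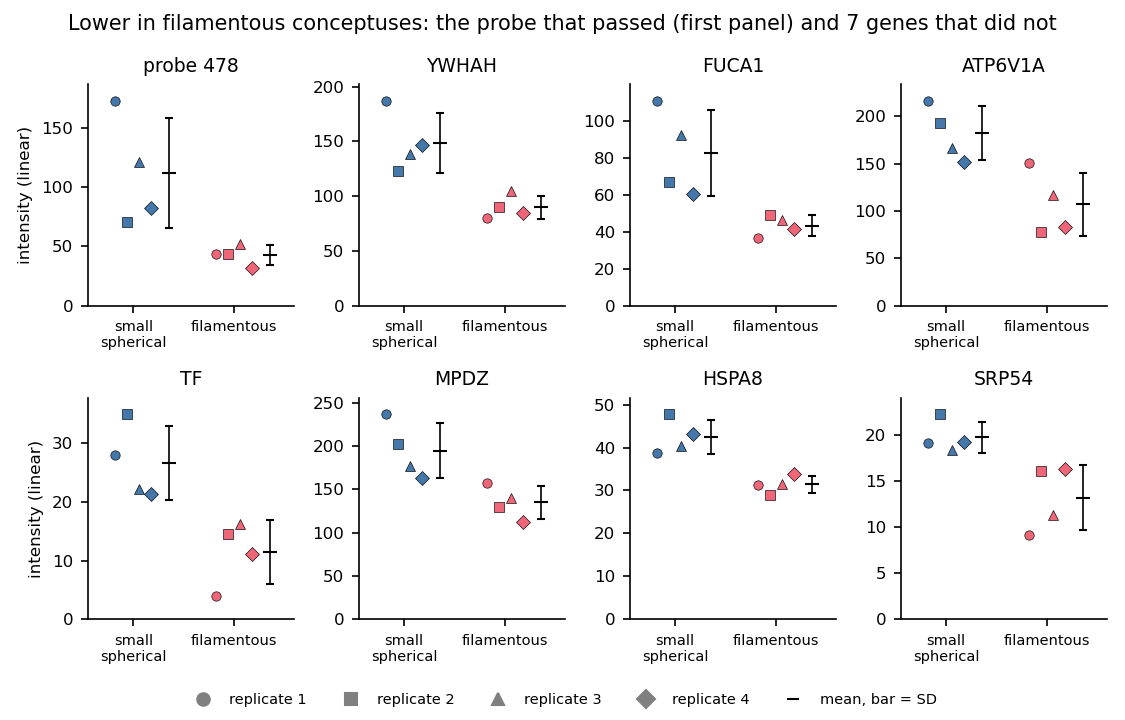
Intensity on a linear scale (y axis) of probe 478, which passed, and of 7 named genes that did not, on the 4 small spherical (blue) and 4 filamentous arrays (red), with 1 symbol for each replicate number and the mean with its SD in black. In all 8 panels the 4 filamentous arrays lie below the 4 small spherical arrays. The 7 genes were picked among those without overlap, so this follows from the choice. Over all probes it held for 27 of 1014 (2.66%). The gap is clear in HSPA8 (29.0 to 33.9 against 38.7 to 47.8). It is narrow in ATP6V1A, where filamentous replicate 1 at 150.2 nears small spherical replicate 4 at 152.

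FUCA1, the lysosomal fucosidase, read 111, 67.0, 92.7 and 60.6 against 36.4, 49.2, 46.6 and 41.5, a difference of -0.90 (SE 0.27; limma, adjusted p = 0.142, n = 4 a group). ATP6V1A, the catalytic subunit of the vacuolar proton pump, read 216, 193, 167 and 152 against 150.2, 78.1, 117 and 83.1, a difference of -0.81 (SE 0.25; limma, adjusted p = 0.146, n = 4 a group). All 4 filamentous values were lower in both. Of 6 pump subunits measured, a list chosen after values were seen, 2 were lower at an unadjusted p below 0.05, ATP6V1A and ATP6V1C1 (5.02% over all named genes), and the median was -0.08. Among 13 lysosomal genes, chosen likewise, 1 was lower and 1, MAN2B1, higher at that p (5.02% and 9.73% over all named genes), and the median was 0.05.

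TF, transferrin, the iron carrier that yolk sac endoderm and liver secrete, read 28.0, 35, 22.2 and 21.4 in small spherical and 3.94, 14.6, 16.3 and 11.2 in filamentous conceptuses. All filamentous values were lower, and the difference was -1.37 (SE 0.44; limma, adjusted p = 0.158, n = 4 a group). The TF reading of filamentous replicate 1, 3.94, lay below the commonest low value of that array, 9.07. Without that array the TF difference was -0.91. Other carriers of the yolk sac went the other way. RBP4, the retinol carrier, had 3 probes, with differences of 0.90, 0.78 and 0.56, and its brightest read 24.5, 28.6, 60.3 and 30.1 against 90.3, 60.8, 49.1 and 56.6. APOA1, an apolipoprotein, had a difference of 0.57 (SE 0.25; limma, adjusted p = 0.313, n = 4 a group).

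AFP, a fetal plasma protein, differed by -0.07 at 57.8 ± 8.11 and 56.3 ± 15.7 (SD, n = 4 each). Of the 13 yolk sac carriers none passed, 6 were positive (45.1% over all named genes) and the median was -0.07. At an unadjusted p below 0.05, 2 were higher and 1 lower, against 9.73% and 5.02% over all named genes. The carriers thus had no common direction.

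The non-oxidative pentose phosphate enzymes, TALDO1 and RPIA, which interconvert sugar phosphates, were both lower by about the same amount. TALDO1 read 193, 236, 245 and 226 against 136, 168, 198 and 118, and RPIA read 208, 392, 303 and 224 against 163, 238, 193 and 178. Their differences were -0.56 and -0.51, with 1 array in each keeping the groups from separating (adjusted p = 0.223 and 0.274 in limma, n = 4 a group). These were 2 of 2 measured members of a list chosen after values were seen.

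Among the other lower genes, MPDZ, a scaffold with many PDZ domains at cell junctions, read 237, 203, 178 and 163 against 158, 130.1, 139.8 and 112. HSPA8, the constitutive heat shock 70 protein, read 38.7, 47.8, 40.3 and 43.2 against 31.3, 29.0, 31.4 and 33.9. SRP54, of the signal recognition particle, read 19.1, 22.2, 18.4 and 19.2 against 9.07, 16, 11.3 and 16.2. None of these overlapped, at differences of -0.53, -0.43 and -0.62, and their adjusted p-values in limma were 0.179, 0.223 and 0.274 (n = 4 a group). The SRP54 reading of filamentous replicate 1, 9.07, was the commonest low value of that array, which 15 probes shared.

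CEBPZOS, named for its place on the strand opposite CEBPZ, which a spotted double-stranded cDNA cannot separate, had a difference of -0.60 without overlap. CTBP2, a transcriptional co-repressor, had a difference of -0.62 and CTNNB1, beta-catenin, of -0.45. SUMO2, a ubiquitin-like modifier, differed by -0.51 and NSDHL, an enzyme of cholesterol synthesis, by -0.59. In each of these last 4 genes 3 filamentous arrays lay below all small spherical arrays, and the adjusted p in limma was between 0.164 and 0.27 (n = 4 a group).

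**Figure D4:**
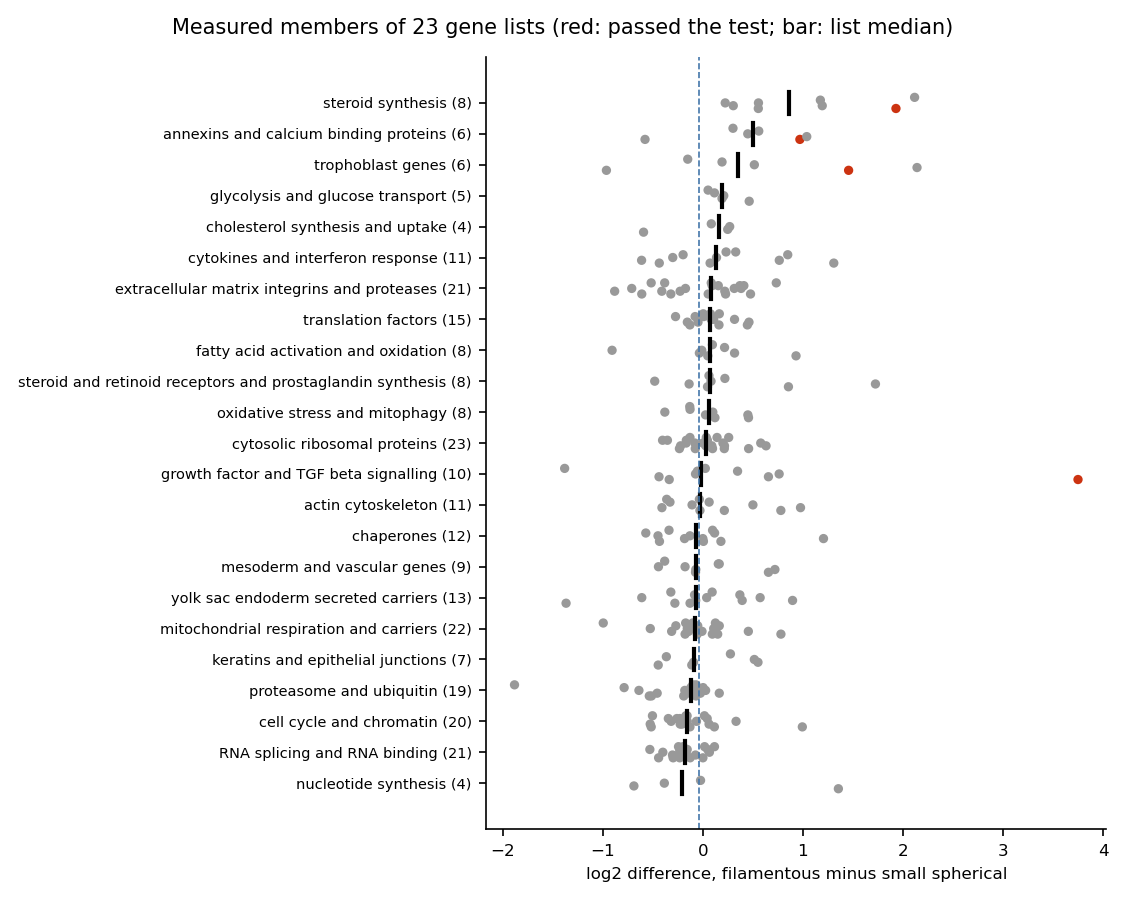
Log2 difference of filamentous minus small spherical conceptuses (x axis) for the measured members of 23 gene lists (y axis, number of genes in brackets), with the list median as a black bar, the median of all probes (-0.03) as a dashed line and genes that passed in red. Steroid synthesis has the highest median, 0.87, with all 8 members positive, and 4 lists hold 1 passed gene each.

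The receptor list held 8 genes for steroids, retinoids and prostaglandins or their synthesis, and none passed. PTGES, which makes prostaglandin E, read 54.8, 47.8, 80.3 and 56.2 in small spherical and 59.5, 145, 94.4 and 156 in filamentous conceptuses. Filamentous replicate 1 was at the small spherical level and the other 3 were above it. ESR2, the estrogen receptor beta, read 6.60, 12.6, 34.6 and 3.91 against 14.2, 44.9, 54.1 and 38.9. Here small spherical replicate 3 was above filamentous replicate 1. The differences were 0.86 and 1.73 (adjusted p = 0.155 and 0.169 in limma, n = 4 a group), and the list's median was 0.07. When those arrays were omitted, both genes passed, at 1.29 and 2.73 (adjusted p = 0.0116 and 0.00543 in limma). In both genes they held the highest small spherical and the lowest filamentous reading, so omitting them widens the difference by construction.

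Cytokine genes were mostly near the bottom of the scale. IL12A, a subunit of interleukin 12, read 3.03, 3.20, 1.91 and 1.73 against 6.5, 5.90, 2.52 and 12.5 (adjusted p = 0.194 in limma, n = 4 a group). IFNG, interferon gamma, which the pig trophectoderm is known to secrete, was bright at 155 ± 19.9 and 125 ± 8.92 (SD, n = 4 each), a difference of -0.30. A second IFNG probe had the opposite sign, 0.96, so no direction is given for this gene. Of 11 cytokine genes none passed and 1 was higher at an unadjusted p below 0.05 (9.73% over all named genes), with a median of 0.14.

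Genes of energy metabolism showed small differences. ENO1, enolase, read 62, 51.0, 67.9 and 58.4 against 80.9, 92.6, 71.7 and 84.3, without overlap, at a difference of 0.46 (SE 0.18; limma, adjusted p = 0.223, n = 4 a group). GAPDH, often used as a reference gene, read 79.8, 86.1, 89.9 and 97.7 against 86.0, 98.3, 86.9 and 113, a difference of 0.12 with an interval from -0.17 to 0.40. All 5 genes of glycolysis and glucose transport were positive (45.1% over all named genes), none passed, and their median was 0.19. ACSL3, which activates fatty acids, had a difference of 0.93 in a list of 8 with a median of 0.07. Of 22 mitochondrial genes 15 were negative and none passed, with a median of -0.08, where most named genes were negative as well.

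The housekeeping lists lay on either side of the median of all probes without a call. Ribosomal proteins had a median of 0.03 over 23 genes and translation factors 0.08 over 15. Proteasome and ubiquitin genes were negative in 16 of 19, with a median of -0.12, and splicing and RNA-binding genes in 16 of 21, with a median of -0.18. Cell cycle and chromatin genes were negative in 14 of 20, with a median of -0.16. Over all named genes 45.1% of differences were positive, so most were negative there too. No member of these 5 lists passed, and the quartiles of all probes were -0.25 and 0.21.

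Chaperones had a median of -0.06 over 12 genes, none passed. HSP90AB1, a cytosolic heat shock protein, had a wide spread, at 107, 159.7, 434 and 25.7 in small spherical and 229.7, 283, 469.8 and 178 in filamentous conceptuses. Matrix, integrin and protease genes had a median of 0.08 over 21 genes. TIMP2, a protease inhibitor, averaged 37.8 ± 12.6 and 20.1 ± 4.98 (SD, n = 4 each), a difference of -0.88 (adjusted p = 0.37 in limma). The oxidative stress list of 8 had a median of 0.06 and the cholesterol synthesis list of 4 a median of 0.17, with no call in either. The nucleotide list of 4, which holds ADSL and ATIC, had a median of -0.20 and no call.

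Markers of the cell layers were measured in part. Over 4 of 10 trophectoderm markers the summed intensity was 336 to 478 in small spherical and 375 to 501 in filamentous conceptuses. For 5 of 10 hypoblast and yolk sac markers it was 303 to 424 and 436 to 592, with 3 of 5 positive (45.1% over all named genes) and none passed. Such sums weigh the brightest probes most, here FN1 and APOA1 with differences of 0.37 and 0.57, while TF and AFP were negative. For 5 of 7 mesoderm and vessel markers it was 207 to 245 and 203 to 308. In that list VIM, an intermediate filament protein of mesenchyme, read 40.5, 38.2, 27.9 and 36.6 against 86.0, 40.6, 46.6 and 71.7, a difference of 0.72 (SE 0.28; limma, adjusted p = 0.239, n = 4 a group). The mesoderm and vascular gene list of 9 had a median of -0.07 and no call.

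None of the 4 epiblast markers had a probe named with its symbol, so they are not analysed here. DPPA5, a gene of pluripotent cells, averaged 9.62 ± 5.11 and 18.5 ± 6.31 (SD, n = 4 each; adjusted p = 0.341 in limma). Of the maternal markers, 2 of 5 for endometrium summed to 22.2 to 32.9 and 9.59 to 34.8. The only blood cell marker of 6, CD3E, read 1.79 to 3.00 and 1.71 to 3.63, on the lowest steps of the scale. The part of a changed share of cell layers in the differences was not tested.

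The levels at the stages between show where along the growth of the conceptus the difference lay, as a description. From the smallest stage to the longest, STAR averaged 40.0 ± 7.89, 135 ± 38.6, 160.4 ± 19.4 and 153 ± 34.3 (SD, n = 4 each), and the means below are in the same order. The last 3 stages lay within each other's spread, and the mean was already high at the large spherical stage. CYP11A1 had the same course, at 40.9 ± 12.9, 81.5 ± 28.6, 87.5 ± 23.8 and 91.8 ± 22 (SD, n = 4 each). CCNI was similar, at 31.5 ± 7.86, 46.4 ± 5.60, 47.9 ± 6.87 and 48.9 ± 8.43 (SD, n = 4 each).

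TGFB3 and PLAC1 took intermediate values on the way. TGFB3 averaged 5.86 ± 5.86, 47.0 ± 14, 65.4 ± 10.3 and 71.8 ± 38.9 (SD, n = 4 each). PLAC1 averaged 12.1 ± 4.20, 24.6 ± 3.26, 30.4 ± 6.14 and 33.7 ± 10.9 (SD, n = 4 each). In both, large spherical conceptuses already lay above the small spherical mean by more than the SD of either stage, and the last 3 stages overlapped.

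**Figure D5:**
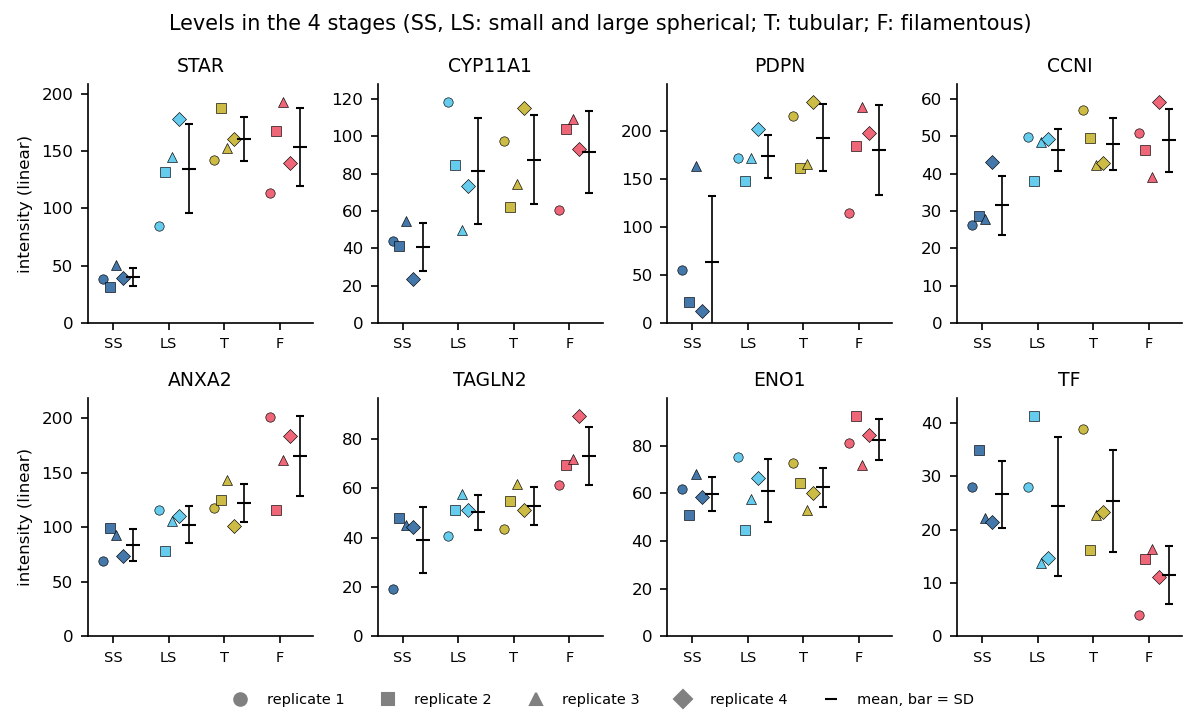
Intensity on a linear scale (y axis) of 8 genes in the 4 stages in order of size (x axis; SS and LS are small and large spherical, T tubular and F filamentous), with 1 symbol for each replicate number and the mean with its SD in black. STAR, CYP11A1, PDPN and CCNI are near their filamentous mean from the large spherical stage on (STAR 135 against 153), whereas ANXA2, TAGLN2 and ENO1 have their highest mean and TF its lowest, 11.5, at the filamentous stage.

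In another group the filamentous mean stood apart from the tubular mean, which was not always the main step. The ANXA2 mean climbed at every stage, and the TAGLN2 mean was also higher in large than in small spherical conceptuses. ANXA2 averaged 83.6 ± 14.5, 103 ± 16.8, 122 ± 17.4 and 165 ± 36.9 (SD, n = 4 each). TAGLN2 averaged 39.0 ± 13.4, 50.2 ± 7.05, 52.7 ± 7.65 and 73.0 ± 11.8, and ENO1 59.8 ± 7.09, 61.1 ± 13.1, 62.5 ± 8.25 and 82.4 ± 8.61 (SD, n = 4 each). For these genes the filamentous mean lay above the tubular mean by more than either SD. TF stayed at 26.6 ± 6.31, 24.4 ± 13.0 and 25.3 ± 9.56 through the tubular stage and was 11.5 ± 5.47 in filamentous conceptuses (SD, n = 4 each).

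The lower probes and genes had no common course. CTBP2 and SRP54 had their main step at the start, at means of 50.2, 29.7, 36.2 and 32.0 for CTBP2 and 19.7, 13.7, 14.3 and 13.1 for SRP54. Probe 478 averaged 112 ± 46.2, 65.6 ± 11.1, 61.0 ± 18.5 and 42.4 ± 8.33 (SD, n = 4 each). YWHAH averaged 149 ± 27.3, 132 ± 25.3, 97.2 ± 18.9 and 89.6 ± 10.7, and FUCA1 82.8 ± 23.4, 74.1 ± 29.1, 52.9 ± 11.1 and 43.4 ± 5.66 (SD, n = 4 each). In YWHAH and FUCA1 both spherical stages were high and the 2 long stages low, with overlapping SDs between neighbours.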

How the data were processed

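The deposited values are intensities on a linear scale, 1 per probe and array, which the authors made from membranes hybridised with phosphorus-32 target, per the labels. Scanning, background correction and normalization are not given in the sources used here. Values ran from 0.12 to 805 and array medians from 62.8 to 71.4. Depth does not apply to arrays, and the number of arrays, 4 a stage, limits precision. Groups come from the sample titles.

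Probes were named through the platform annotation: 676 had 1 gene symbol, 15 several and 324 none. A gene with several probes counted through the brightest, and probe 357, which was constant, was left out. Log2 intensities of all 16 arrays were fitted with limma 3.58.1 in R 4.3.3 with 1 mean per stage, and the contrast was tested on both sides with Benjamini-Hochberg adjustment over 1014 probes. The same fit was tested on simulated data. Tables and figures used Python 3.11.15, pandas 2.3.3, numpy 2.4.6 and matplotlib 3.10.9.

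Genes named were the 15 higher and 15 lower with the smallest p, up to 3 of each list by p, the unnamed probes that passed, and 11 fixed genes (STAR, CYP11A1, CYP17A1, CYP19A1, TGFB3, PLAC1, ANXA2, ADSL, TF, KRT18 and GAPDH); others were named after their values were seen. The comparison, the lists and the genes were chosen with earlier results of these data known. Alternatives were other normalizations, a filter on dim probes, an offset, a replicate block, fewer arrays, weights, a variance trend, a term for the arrays numbered 1, removal of a trend along probe number, and leaving out each array. No genome build is named, so no coordinates are given.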

Additional observations from a re-analysis of the deposited data

Results flagged for a closer look

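Single arrays lay far from the other 3 of their stage in 12 of 184 groups of 4 values examined, where chance alone marks about 1 in 20 groups, or 9.2. TGFB3 read 14.2 on filamentous replicate 1 against 86.8 to 99.5 on the others. PLAC1 read 17.6 on the same array against 36.4 to 41.5, and 18.4 on small spherical replicate 3 against 9.39 to 10.4. RPL36AL, a ribosomal protein, and ARID1A, a chromatin remodelling subunit, were high on filamentous replicate 1, at 394 and 26.2. The RPL36AL reading is the highest value of that array, which 7 probes share.

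Small spherical replicate 1 was low for TAGLN2 at 19.1, CITED1 at 4.82 and ELOVL6, a fatty acid elongase, at 78.0, and high for probe 1010 at 60.2. PTBP1, a splicing regulator, read 20.3 on small spherical replicate 3 against 19.0 to 19.2. CEBPZOS read 11.7 on filamentous replicate 2 and HPRT1, of purine salvage, 33.9 on filamentous replicate 4. HPRT1 has a second probe of opposite sign (1.18 against -0.38). Of the 12 values, 4 each came from small spherical replicate 1 and filamentous replicate 1, 2 from small spherical replicate 3, and 1 each from filamentous replicates 2 and 4.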

How the results depend on the processing

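No difference that passed changed sign. Over 92 named differences and 2642 values under alternatives, 2560 stayed on their side of the threshold, 50 lost and 32 gained a call. Of the 9 probes that passed (8 higher, 1 lower), the count became 15 (13 and 2) with the replicate block, 2 (2 and 0) with the 8 arrays alone, 14 with 2 lower with a term for the arrays numbered 1, and 31 (29 and 2) without both small spherical replicate 3 and filamentous replicate 1. The lower count was 0 with array weights, with arrays 2 to 4 alone and after removal of a trend by probe number, and 2 with a variance trend. Leaving out 1 array gave 3 to 28 probes, 3 to 26 higher and 0 to 2 lower; the 28 came without small spherical replicate 3. Probes without overlap, 46 higher and 27 lower, numbered 99 and 76 with arrays 2 to 4, 111 and 88 without both arrays, and 52 to 80 and 42 to 55 with 1 array left out; fewer arrays overlap less often by construction. List medians moved as follows, and the cause was not tested. With arrays 2 to 4 alone growth factors were at -0.15 and matrix genes at -0.16. Without the dimmest probes the receptor list was at 0.22 and the yolk sac list at 0.038. With the trend removed keratins were at 0.10, mitochondrial genes at 0.0081 and cell cycle genes at -0.10. Matrix genes were at -0.021 with array weights. Without both arrays matrix genes were at -0.12, the proteasome list at -0.25 and splicing genes at -0.33. With 1 array left out, the medians ran from -0.091 to 0.11 for actin, -0.14 to 0.092 for the yolk sac, -0.046 to 0.19 for matrix and -0.23 to -0.10 for cell cycle genes. Deviations of same-numbered arrays correlated at 0.469, 0.198, 0.350 and 0.0328 for replicates 1 to 4. Filamentous replicates 1 to 3 correlated best with their own number and replicate 4 did not. The reported fit does not pair the samples, because the labels do not say what the numbers stand for. Whether same-numbered arrays share a batch was not tested. The 15 probes under the replicate block include all 9 and also TMSB10, TAGLN2 and ADSL (adjusted p = 0.0277, 0.0232 and 0.0277 in limma). With arrays 2 to 4 alone, 6 of the 9 passed.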

Other observations

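Some groups outside the comparisons above were looked at after values were seen. The ATG8 family and its processing protease, which build and recycle autophagosome membranes, had 3 of 3 positive differences: 1.06 for GABARAPL2, 0.94 for ATG4D and 0.42 for GABARAP. None passed. ATG4D read 85.2, 95.7, 158 and 65.0 in small spherical and 154, 191, 251 and 154 in filamentous conceptuses, with small spherical replicate 3 the highest of its group.

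Interleukin 13, as IL13, was dim but did not overlap, at 4.82, 3.00, 7.87 and 3.91 against 9.07, 14.6, 11.3 and 23.8, a difference of 1.58 (adjusted p = 0.155 in limma, n = 4 a group). The readings of small spherical replicate 2 and filamentous replicate 1 were the commonest low values of those arrays, which 25 and 15 probes shared. The lack of overlap, 9.07 against 7.87, thus rests on a shared low step. EGLN1 is an oxygen-sensing hydroxylase that marks hypoxia-inducible factors for removal. It read 12, 11.0, 3.10 and 8.27 against 24.5, 24.7, 23.9 and 13.7, also without overlap, at 1.47 (adjusted p = 0.197 in limma, n = 4 a group). Its reading on small spherical replicate 4 was the commonest low value of that array, which 11 probes shared. On replicate 3 it lay below that array's commonest low value, 5.01. CYP26A1, which breaks down retinoic acid, had a difference of 1.44 beside 0.90 for RBP4, in a list of 5 retinoid genes with a median of 0.22 and no call. SMARCA4, the ATPase of a chromatin remodelling complex, read 67.3, 60.6, 123 and 34.4 against 122, 124, 136 and 132, with a narrow filamentous range and a wide small spherical one. Its difference was 0.99 (adjusted p = 0.14 in limma, n = 4 a group).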
